A study of Mus musculus with 12 samples.

Results

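The genes described here are 10 tissue-regulated splicing regulators of the RBFOX, MBNL, CELF, RBM and NOVA families, Rbfox1, Rbfox2, Mbnl1, Mbnl2, Celf1, Celf2, Rbm20, Rbm24, Nova1 and Nova2. They were chosen by name, though with earlier results of these data known, from a table of 23423 genes, and all 10 were found in it. Their levels were measured by sequencing of polyadenylated RNA in 12 libraries of mouse heart cells, 6 groups with 2 libraries each. Every preparation started from CD1 mouse hearts taken 1.5 days after birth. Fresh cardiac fibroblasts (CF) were enriched on magnetic columns for the surface protein Thy1, and fresh cardiomyocytes (CM) came from a commercial isolation kit. The other 4 groups were cardiac fibroblasts in culture, lysed 3 days after transduction. They had received a control retrovirus, a retrovirus with the factors Mef2c, Gata4 and Tbx5 (MGT), MGT plus a lentivirus with a non-targeting hairpin (shNT), or MGT plus a lentivirus with a hairpin against Ptbp1 (shPtbp1). Titles of the control wells name lacZ while their other labels name an empty vector, and the second shPtbp1 library names Ptbp2 in its source label but Ptbp1 in its title and treatment label. The labels do not state whether the 2 libraries of a group came from separate animals or wells, so the p-values measure the spread between these libraries, which may be technical.

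These proteins bind short motifs in precursor RNA and decide which exons a cell keeps. RBFOX proteins bind UGCAUG, MBNL proteins promote adult exon choices in muscle and are sequestered by expanded repeats in myotonic dystrophy, and CELF1 often acts on the same exons in the opposite sense. RBM20 controls the splicing of titin and calcium handling genes and is mutated in a form of dilated cardiomyopathy, RBM24 is a muscle splicing activator needed for sarcomere assembly, and the NOVA proteins are best known from neurons, with a role of NOVA2 in blood vessels as well. PTBP1, the target of the hairpin, represses many exons of muscle and neurons, among them an exon of its paralog Ptbp2. The table holds gene levels only, so splicing itself was not analysed here.

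Values are scaled CPM, reads per 1000000 reads assigned to genes divided by a factor for each library, from 49320858 to 94005212 assigned reads per library. A log2 fold change is the difference of log2(scaled CPM + 0.5) with its standard error (SE) or 95% interval, which understates the change of low genes. Changes written as n-fold, and the percent fall of Mbnl1, are ratios of the group means of scaled CPM without the 0.5. For low genes they are therefore larger than the log2 value beside them. A gene is "called" where its adjusted p is below 0.05 by limma. Of the marker genes, 12 of 12 cardiomyocyte markers were higher and 10 of 10 fibroblast markers were lower in fresh cardiomyocytes. Both fresh preparations nevertheless held both sets, with summed cardiomyocyte markers at 1574 and 1600 in CF and 16660 and 15903 in CM. Ptbp1 was 81.1 and 78.5 in the shPtbp1 libraries, below the range of 354 to 491 in the other 10, and Ptbp2 was 133 and 136 there against 23.7 to 68.7 elsewhere, the second shPtbp1 library included. In bulk RNA, fewer cells of a type and less RNA per cell cannot be told apart.

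All 10 regulators passed the filter of 1 CPM in at least 2 libraries, Nova2 through the fresh libraries only. Between the fresh cell types 3 regulators were higher in cardiomyocytes and 6 lower, where 35.2% and 41.7% of all genes tested were called in those directions (76.9% in either). In control cultures against fresh fibroblasts 3 were higher and 4 lower, against 43.5% and 43.4% of all genes (86.9%). With MGT 3 were higher and 2 lower than in control wells (17.9% and 17.7% of all genes, 35.6% in either direction). With shNT against MGT 4 were higher and 0 lower (24.6% and 20.1%, 44.7% in either direction). By limma at an unadjusted p under 0.05 and by edgeR, 0 were lower as well. With shPtbp1 against shNT 3 were higher and 3 lower (16.7% and 18.1%, 34.8%), and against MGT alone 2 were higher and 3 lower (24.3% and 20.0%, 44.3%). Each of the 6 comparisons shares libraries with another, so they are not independent. Nothing particular to the 10 as a set is read from these counts, and the results below are those of single genes.

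**Figure D1:**
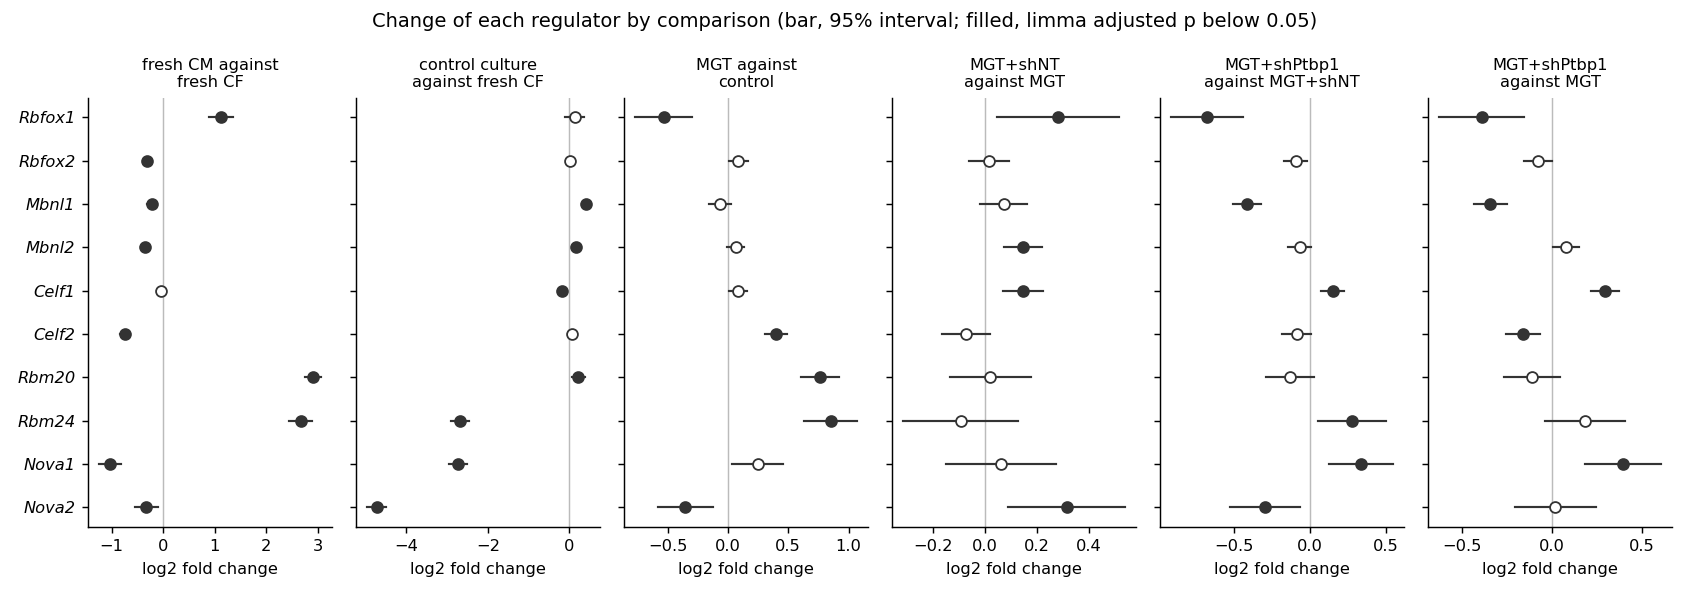
Log2 fold change (horizontal axis) of each of the 10 regulators (rows) in 6 comparisons (panels, each with its own scale), with 95% intervals and filled points where limma's adjusted p was below 0.05. Rbm20 and Rbm24 lie together at 2.91 and 2.67 in fresh cardiomyocytes and apart, at 0.22 and -2.68, in control cultures.

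Per kilobase of exon, Rbfox2, Mbnl2 and Celf1 stood above the other regulators in every cultured group. In control cultures they were at 26.1 ± 1.07, 22.6 ± 0.0451 and 14.3 ± 0.21 scaled CPM per kb (SD, n = 2). Mbnl1 and Celf2 followed at 9.85 and 5.28, and Rbm20, Rbfox1, Rbm24, Nova1 and Nova2 were at 1.96, 0.516, 0.349, 0.218 and 0.0724. In fresh cardiomyocytes Rbm24 and Rbm20 joined the abundant regulators, at 20.0 ± 0.358 and 13.03 ± 0.313 beside Rbfox2 at 20.7. Lengths are the union of all annotated exons, so genes with many long isoforms, such as Celf2 and Mbnl1, are placed lower than a single isoform would place them.

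**Figure D2:**
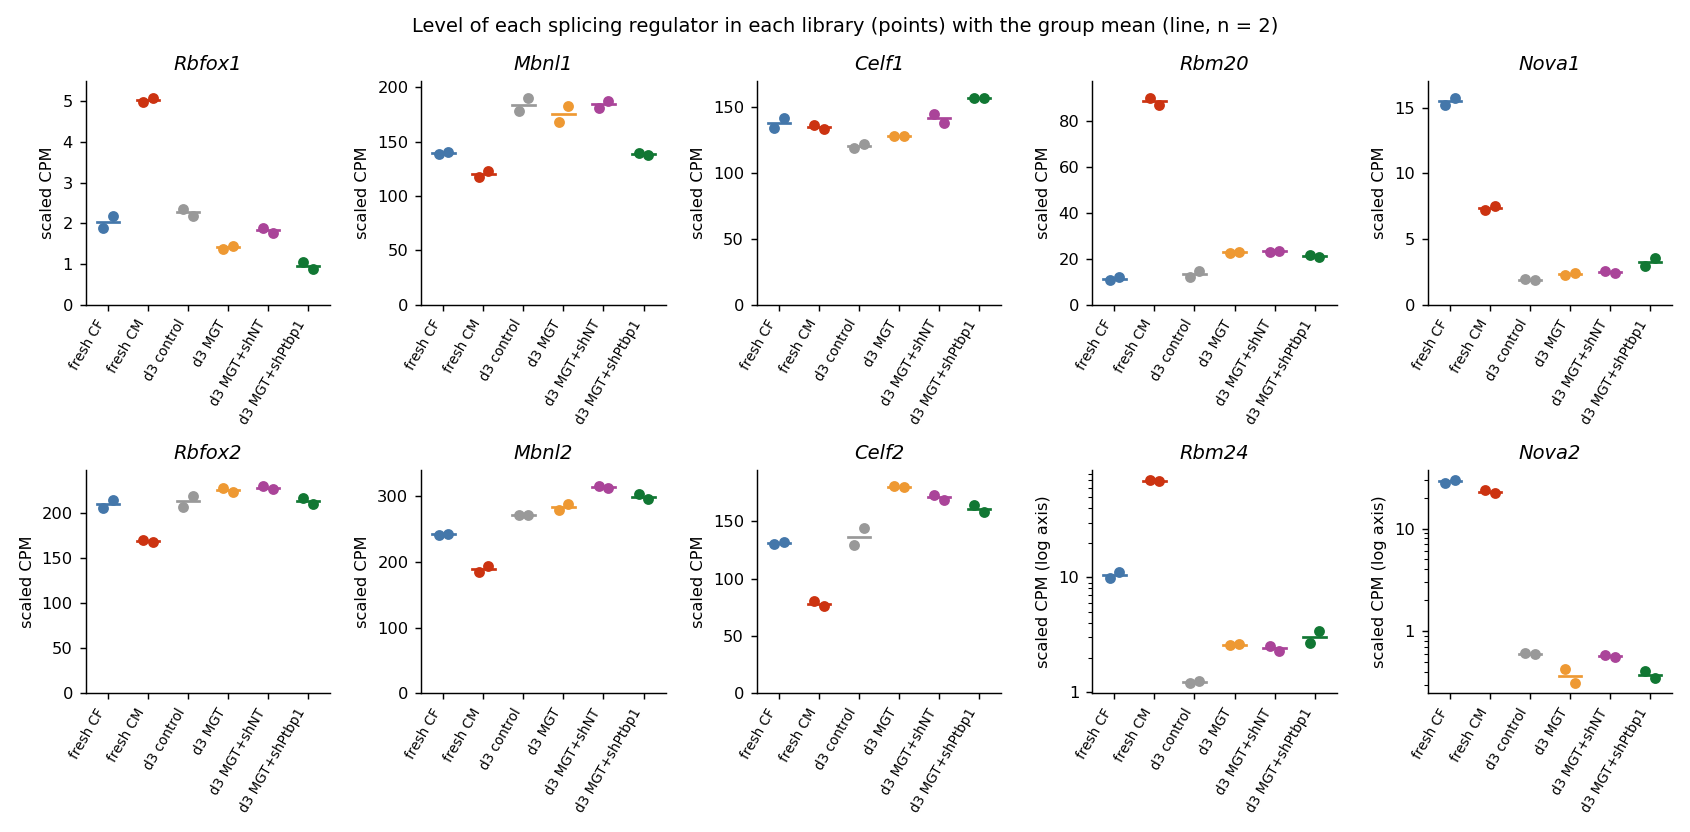
Scaled CPM (vertical axis, from 0, but logarithmic for Rbm24 and Nova2) of each regulator in the 12 libraries; points are libraries and lines the mean of 2. Rbm20 and Rbm24 are highest in fresh cardiomyocytes, Nova2 is between 22.2 and 29.7 in the 4 fresh libraries and at most 0.614 in the cultured ones, and Rbfox2 spans only 167 to 229.

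Rbm20 and Rbm24 were the regulators with the largest rise in fresh cardiomyocytes over fresh fibroblasts. Rbm20 (chromosome 19, 53677306 to 53867080, plus strand, GRCm38) was 89.95 and 86.9 scaled CPM in fresh cardiomyocytes and 10.6 and 12.1 in fresh fibroblasts. Rbm24 (chromosome 13, 46418434 to 46431095, plus strand) was 70.6 and 68.9 in cardiomyocytes and 9.88 and 11.2 in fibroblasts. For both genes the cardiomyocyte libraries lay far above the fibroblast libraries without overlap. The fold changes were 7.81-fold for Rbm20 (log2 2.91 ± 0.0745 SE, adjusted p = 4.98e-17) and 6.6-fold for Rbm24 (2.67 ± 0.105, adjusted p = 3.44e-14), larger in size than those of 99.2% and 99.0% of the genes tested.

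The pair differed in control cultures, which differ from fresh fibroblasts in culture, virus and the markers of other cells, so that these cannot be told apart. In control wells Rbm24 was 1.195 and 1.24, an 8.67-fold fall from fresh fibroblasts (log2 -2.68 ± 0.105, adjusted p = 8.02e-15). Rbm20 was 12.1 and 14.5 in the same wells, with 1 library at the level of the higher fresh fibroblast library (log2 0.22 ± 0.0745, adjusted p = 0.0102). That small call for Rbm20 was lost without CF replicate 1 (0.12, adjusted p = 0.207), without control replicate 2 (0.10, 0.225), without further scaling of the CPM (0.11, 0.146) and with only the 4 libraries (0.20, 0.0665). The ratio of Rbm20 to Rbm24 per kb moved from 0.549 and 0.554 in fresh fibroblasts and 0.655 and 0.649 in cardiomyocytes to 5.21 and 6.01 in control cultures, and it was between 3.11 and 5.33 in the other cultured libraries. Every cultured library had more Rbm20 than Rbm24 per kb, and every fresh library the reverse. Beside this, 10 of 12 cardiomyocyte markers were lower in control cultures than in fresh fibroblasts, such as Myl2 at 4.59 against 245, and Tnnt2 and Ryr2 were higher, at 2305 against 186 and 115 against 42.7. The part of left-over cardiomyocytes in these levels was not tested.

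Rbm20 and Rbm24 rose with MGT. Rbm20 was 22.6 and 23.1 with MGT against 12.1 and 14.5 in control (log2 0.76 ± 0.0745, adjusted p = 2.22e-07), and Rbm24 was 2.58 and 2.62 against 1.195 and 1.24 (0.85 ± 0.105, adjusted p = 4.11e-06). The MGT and control libraries did not overlap for either gene, and the changes were larger than those of 98.0% and 98.7% of genes tested. The Rbm24 levels rest on 219 and 235 reads with MGT and 111 and 110 reads in control wells. Both increases kept their call under all alternatives run. When 1 library was left out they ranged from 0.64 to 0.89 for Rbm20 and from 0.83 to 0.87 for Rbm24. Over all alternatives the size for Rbm24 varied more, from 0.52 to 1.09, the highest by edgeR. In the same wells summed cardiomyocyte markers were 3407 and 3584 against 2655 and 2444, with 6 of 12 higher and 1 lower by limma and 6 higher and 3 lower by edgeR. Tnnt2 made up most of these sums, with means of 3151 and 2305. The part of these genes' cells in the rise of Rbm20 and Rbm24 was not tested. With MGT, Rbm24 was below and Rbm20 above the level of fresh fibroblasts, and both were below fresh cardiomyocytes; these differences were not tested.

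The hairpin groups were compared with each other and with MGT alone. Rbm20 was 22.8 and 23.5 with shNT and 21.7 and 20.6 with shPtbp1, a difference of -0.13 (95% interval -0.29 to 0.02, adjusted p = 0.187). Rbm24 was 2.54 and 2.27 with shNT and 2.67 and 3.41 with shPtbp1 (log2 0.28, interval 0.06 to 0.50, adjusted p = 0.0484). The higher of the shPtbp1 values for Rbm24 belongs to the library with the conflicting source label, and without it the difference was 0.13 (adjusted p = 0.472). The call was lost in 7 of 14 alternatives, also without shNT replicate 1 (0.35, 0.0587) and without shNT replicate 2 (0.21, 0.247), and with the replicate number as a block the adjusted p was 0.0512. Adding shNT to MGT gave no call for either gene (0.02 with an interval of -0.14 to 0.18 for Rbm20, -0.09 with -0.32 to 0.13 for Rbm24). Between shPtbp1 and MGT alone Rbm20 was at -0.11 (interval -0.27 to 0.04, adjusted p = 0.241). Rbm24 was at 0.18 there (interval -0.04 to 0.40, adjusted p = 0.174), and without shPtbp1 replicate 1 it was called higher (0.33, adjusted p = 0.0249).

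**Figure D3:**
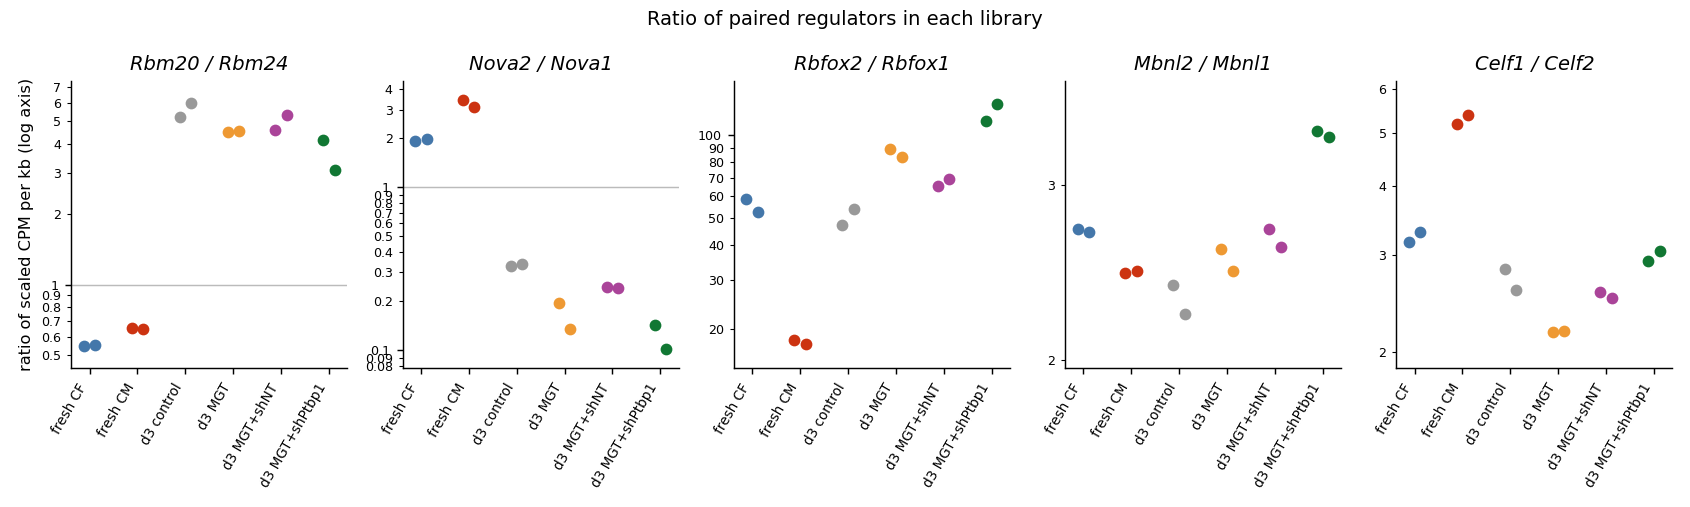
Ratio of 2 regulators per kb of exon (vertical logarithmic axis) in each library (points), by group. Rbm20 to Rbm24 and Nova2 to Nova1 cross 1 between fresh and cultured cells, and Rbfox2 to Rbfox1 runs from 17.7 in cardiomyocytes to 129 with shPtbp1.

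Rbfox1 and Rbfox2 bind the same motif, and they moved in opposite directions between the fresh cell types. Rbfox1 (chromosome 16, 5885355 to 7411526, plus strand) was 4.99 and 5.09 in cardiomyocytes and 1.89 and 2.19 in fibroblasts, whereas Rbfox2 (chromosome 15, 77078990 to 77307004, minus strand) was 169 and 167 against 205 and 214. The cardiomyocyte libraries were thus above all other libraries for Rbfox1 and below all others for Rbfox2. The log2 fold changes were 1.13 ± 0.112 (adjusted p = 2.92e-08) and -0.32 ± 0.0366 (adjusted p = 2.22e-07). Rbfox2 outweighed Rbfox1 per kb in every library, 18.3 and 17.7 times in cardiomyocytes and 58.6 and 52.9 times in fibroblasts. Neither gene was called between control cultures and fresh fibroblasts, with intervals of -0.11 to 0.36 for Rbfox1 and -0.06 to 0.09 for Rbfox2. Without further scaling of the CPM Rbfox2 was called lower there (-0.09, adjusted p = 0.0177).

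Rbfox1 fell with MGT and again with Ptbp1 silencing. It was 2.35 and 2.19 in control wells, 1.38 and 1.45 with MGT, 1.89 and 1.76 with shNT, and 1.04 and 0.883 with shPtbp1. The shPtbp1 libraries were the lowest of all 12, and the MGT libraries came next. MGT against control gave -0.53 ± 0.112 (adjusted p = 0.00102) and shPtbp1 against shNT -0.67 ± 0.112 (adjusted p = 0.000121), larger in size than 95.2% and 97.6% of genes tested. Both calls held under every alternative run, and without the shPtbp1 or shNT libraries in turn the second ranged from -0.75 to -0.60. These levels rest on 117 and 130 reads with MGT and 82 and 63 reads with shPtbp1, against 218 and 194 in control wells. The difference from MGT alone was smaller (-0.39, adjusted p = 0.00836) and was lost without MGT replicate 2 (-0.36, 0.0521) or shPtbp1 replicate 2 (-0.31, 0.0824). The call for the rise with shNT over MGT (0.28, adjusted p = 0.0478) was lost in 11 of 14 alternatives. Among these were leaving out any of the 4 libraries (0.24 to 0.32), TMM and upper-quartile scaling. The call was also lost by edgeR (adjusted p = 0.11) and with only the 4 libraries (0.127). Rbfox2 was 225 ± 2.87 with MGT, 227 ± 2.35 with shNT and 213 ± 4.67 with shPtbp1, with no call in these comparisons (adjusted p = 0.0785, 0.784 and 0.0582 for MGT, shNT and shPtbp1 against its reference), although without control replicate 2 it was called higher with MGT (0.12, adjusted p = 0.0227). Without further scaling of the CPM Rbfox2 was called lower with shPtbp1 than with shNT (-0.09, adjusted p = 0.0472). Against MGT alone it was at -0.08 with shPtbp1 (adjusted p = 0.0943), and was called lower with TMM factors, by edgeR and with only the 4 libraries (adjusted p = 0.029, 0.034 and 0.0409). The ratio of Rbfox2 to Rbfox1 per kb was 112 and 129 with shPtbp1.

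Mbnl1 and Mbnl2 were lower in cardiomyocytes than in fibroblasts and higher in control cultures. Mbnl1 (chromosome 3, 60472830 to 60629750, plus strand) was 117 and 123 in cardiomyocytes, 139 and 141 in fresh fibroblasts, and 178 and 191 in control cultures. Mbnl2 (chromosome 14, 120275669 to 120431697, plus strand) was 184 and 194, then 241 and 243, then 271 and 272. Cardiomyocytes against fibroblasts gave -0.22 (SE 0.0432, adjusted p = 0.000146) for Mbnl1 and -0.36 (SE 0.0347, adjusted p = 2.1e-08) for Mbnl2. Control cultures against fresh fibroblasts gave 0.39 (adjusted p = 6.33e-08) and 0.16 (adjusted p = 0.000225), and the second was lost without further scaling (0.05, adjusted p = 0.156). Mbnl1 and Mbnl2 had no call with MGT (-0.07 with an interval of -0.16 to 0.02, and 0.06 with -0.01 to 0.14).

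Mbnl1 fell with the Ptbp1 hairpin. Its values were 181 and 188 with shNT and 139 and 138 with shPtbp1, a fall to the level of fresh fibroblasts with both libraries below every other cultured library. The level fell by 24.99%, with a log2 fold change of -0.41 ± 0.0432 (adjusted p = 5.58e-07) that was larger in size than that of 91.4% of genes tested. It was called under all alternatives, from -0.44 to -0.39 with 1 library left out, and against MGT alone it was -0.34 (adjusted p = 3.03e-06). Mbnl2 was 315 and 312 with shNT and 303 and 295 with shPtbp1 (-0.07, interval -0.14 to 0.01, adjusted p = 0.146). Mbnl2 per kb was 3.39 and 3.35 times Mbnl1 with shPtbp1 and between 2.22 and 2.71 times in the other 10 libraries, which did not overlap with these. Mbnl2 was higher with shNT than with MGT alone, where it was 278 and 289 (0.15, adjusted p = 0.00204). Mbnl1 had no call there (0.07, adjusted p = 0.19), though it was called higher without MGT replicate 2 (0.14, 0.0373). The shNT and shPtbp1 wells both differ from MGT wells by a second virus as well as by its hairpin. In a comparison with MGT alone the parts of these cannot be told apart.

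Celf1 and Celf2, which bind GU-rich RNA, differed in where they varied. Celf1 (chromosome 2, 90940382 to 91019497, plus strand) was 136 and 133 in cardiomyocytes and 134 and 142 in fibroblasts (log2 -0.04, interval -0.11 to 0.04, adjusted p = 0.384). Celf2 (chromosome 2, 6539694 to 7509563, minus strand) was 80.4 and 75.8 against 129.9 and 132 (log2 -0.74 ± 0.0447, adjusted p = 2.04e-11). The cardiomyocyte libraries were the lowest of all for Celf2, and for Celf1 they lay within the range of the fibroblasts or just below it. Between control cultures and fresh fibroblasts Celf2 had no call (0.06, adjusted p = 0.2), but it was called higher without control replicate 1 (0.14, 0.00439), with TMM factors, with upper-quartile scaling and by edgeR (0.10 each). Between the fresh cells summed fibroblast markers were 18552 and 18435 against 35481 and 34571, and summed macrophage markers 366 and 372 against 732 and 732. Whether these cells carried the Celf2 difference was not tested. An exon overlap with an antisense transcript covers 7.58% of the Celf2 exon length, and the strand setting of the counting is not given in the sources used here.

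Celf2 rose with MGT, from 129 and 144 in control to 181 and 179.6 (log2 0.40 ± 0.0447, adjusted p = 1.3e-06), a change larger than that of 91.1% of genes tested and called in all alternatives (0.32 to 0.48 with 1 library left out). The direction was opposite to that between cardiomyocytes and fibroblasts. Of 6 macrophage markers 4 were lower and 1 higher with MGT. Their sum was 1259 and 1264 against 1224 and 1201 in control, with Cd68 at 522 against 379 and Cx3cr1 at 10.5 against 20.4. With hairpins Celf2 was 173 and 169 for shNT and 164 and 158 for shPtbp1 (-0.09, interval -0.18 to 0.01, adjusted p = 0.152), while against MGT alone shPtbp1 was lower (-0.16, adjusted p = 0.00683, and -0.13 with 0.062 without shPtbp1 replicate 2). Between shNT and MGT alone Celf2 had no call (-0.07, adjusted p = 0.192), but it was called lower with only the 4 libraries (-0.10, 0.0121). All 6 macrophage markers were lower with shNT than with MGT, with a sum of 393 and 407. The part of macrophages in the Celf2 levels was not tested.

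Celf1 was lower in control cultures than in fresh fibroblasts (-0.19, adjusted p = 6.36e-05) and higher in the hairpin groups. It was 119 and 122 in control, 128 and 128 with MGT, 145 and 138 with shNT and 157 and 157 with shPtbp1, and no library of a later group in this order overlapped an earlier one. MGT against control was not called (0.08, adjusted p = 0.0802). The next 2 differences were 0.15 for shNT over MGT (adjusted p = 0.00297) and 0.15 for shPtbp1 over shNT (adjusted p = 0.00373). They were lost without shNT replicate 1 (0.11) and without shNT replicate 2 (0.12) in that order. Celf1 with shPtbp1 against MGT alone was called in all alternatives (0.30, adjusted p = 2.27e-06). The shPtbp1 wells differ from MGT alone by a second virus as well as by its hairpin, and that comparison cannot tell these apart.

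Nova1 and Nova2, the neuronal regulators, were higher in both fresh preparations than in any cultured well. Nova2 (chromosome 7, 18925888 to 18965319, plus strand) was 27.9 and 29.7 in fresh fibroblasts, 23.5 and 22.2 in cardiomyocytes and 0.614 and 0.598 in control cultures. Nova1 (chromosome 12, 46694517 to 46818929, minus strand) was 15.2 and 15.8, then 7.19 and 7.52, then 1.96 and 1.85. Control cultures against fresh fibroblasts gave a 47.6-fold fall of Nova2 (log2 -4.73 ± 0.108, adjusted p = 1.75e-18) and an 8.13-fold fall of Nova1 (-2.73 ± 0.101, adjusted p = 2.89e-15). Nova2 per kb was 1.92 and 1.97 times Nova1 in fresh fibroblasts and 0.327 and 0.338 times in control cultures, so their order turned. Of the exon length of Nova2, 31.7% is shared with an antisense transcript, so its reads are uncertain without the strand setting, and 3.54% of that of Nova1 is shared with another transcript on its own strand.

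Markers of other cells changed in the same comparison. All 7 endothelial markers fell in control cultures, with a sum of 2971 and 3023 in fresh fibroblasts and 113 and 119 in culture. Summed Schwann cell markers were 12.003 and 12.1 against 4.23 and 3.72. Summed neuron markers were 22.7 and 21.9 against 87.2 and 81.7. Of the 4 neuron markers tested, Tubb3 and Dbh were higher in control cultures (66.6 against 4.64 and 16.9 against 0.239) and Stmn2 and Prph lower (0.0113 against 14.4 and 0.253 against 1.32), while Snap25 was at 0 in both control cultures. In fresh cardiomyocytes the endothelial sum was 3793 and 3780. The part of these cells in the NOVA levels was not tested.

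Between the fresh cell types Nova1 was lower in cardiomyocytes by -1.03 (SE 0.101, adjusted p = 2.38e-08). Nova2 was lower by -0.33 (adjusted p = 0.0104), a call lost without CF replicate 2 (-0.29, 0.0727), without CM replicate 2 (-0.29, 0.0665) and at a pseudocount of 0.1 (-0.33, 0.061). In culture the NOVA levels rested on few reads per library, 25 to 57 for Nova2 and 164 to 255 for Nova1. Nova1 was 2.97 and 3.57 with shPtbp1 against 2.54 and 2.42 with shNT (0.34 ± 0.101, adjusted p = 0.0142). That call was lost without shNT replicate 2 (0.31) or shPtbp1 replicate 2 (0.22), the library with the conflicting source label. Against MGT alone Nova1 was also higher with shPtbp1 (0.40, adjusted p = 0.00342), a call lost only without shPtbp1 replicate 2 (0.28). Nova2 was called lower with MGT (-0.35, adjusted p = 0.0159), higher with shNT (0.31, 0.0241) and lower with shPtbp1 (-0.29, 0.0416). It was at most 0.614 scaled CPM in culture and entered these fits through the fresh libraries only. With only the 4 libraries compared Nova2 was not tested. At a pseudocount of 2 all 3 calls were lost (adjusted p = 0.106, 0.138 and 0.185), and nothing is read from them. Each of these 3 calls rests on single libraries: the first was lost without control replicate 1, control replicate 2 or MGT replicate 2 (adjusted p = 0.0606, 0.0509 and 0.159), the second without MGT replicate 2, shNT replicate 1 or shNT replicate 2 (0.187, 0.102 and 0.0622), and the third without any of its 4 libraries (0.0554 to 0.185).

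Of the 10 regulators, Rbm24, Nova1 and Nova2 fell most in control cultures against fresh fibroblasts, so the DNA before their starts is shown. Celf1 was also called lower there (-0.19), and its sequence is not shown. RefSeq windows (GRCm38.p6) were matched for 8 of the 10 regulators, and the bases are 5′ to 3′ on the gene's strand, upstream of the RefSeq start and, for Nova1, of the longer annotated transcript. Capitals mark the T-box core (GGTGTG) and the E-box CAGCTG, searched on both strands together with AGATAA, the core of a GATA factor site, the MEF2 box and the CArG box. Nova1 holds the T-box core, read on the other strand, and the E-box, 233 and 193 bases before its RefSeq start; in the other 2 none of the 5 motifs was found in the window.
Rbm24, chr13:46418050-46418299, plus strand: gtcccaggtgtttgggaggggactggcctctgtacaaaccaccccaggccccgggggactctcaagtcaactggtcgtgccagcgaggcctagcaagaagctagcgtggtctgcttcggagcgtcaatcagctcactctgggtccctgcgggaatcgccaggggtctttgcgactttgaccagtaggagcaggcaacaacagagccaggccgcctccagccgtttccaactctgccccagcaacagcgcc
Nova1, chr12:46818930-46819017, minus strand: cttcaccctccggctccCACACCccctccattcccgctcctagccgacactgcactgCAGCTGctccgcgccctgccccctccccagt
Nova2, chr7:18925638-18925887, plus strand: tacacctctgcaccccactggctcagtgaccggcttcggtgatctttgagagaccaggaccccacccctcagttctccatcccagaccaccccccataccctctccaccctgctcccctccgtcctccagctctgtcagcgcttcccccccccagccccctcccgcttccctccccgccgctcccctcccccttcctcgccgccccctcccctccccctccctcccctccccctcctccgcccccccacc
Among all 32851 RefSeq windows of 300 bases, 19.0% held the T-box core, 16.3% the E-box, 11.2% the GATA motif, 3.19% the MEF2 box and 1.63% the CArG box. The windows of Rbm24, Nova1 and Nova2 had a GC content of 64.7%, 51.7% and 71.3%, where the median window had 52.7%. A match is a description of letters, and no binding was measured here.

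The other splicing regulators were counted from 2 lists, 7 further members of the same families, of which 4 could be tested, and 24 other tissue-regulated splicing regulators, of which 18 could. Nothing particular to these lists is read from the counts. In cardiomyocytes 1 of the 4 was higher and 3 lower, and 5 of the 18 were higher and 8 lower. Of all genes tested, 35.2% were called higher and 41.7% lower. The largest change in the lists was that of the RBM24 paralog Rbm38 (52.2 against 13.6 in fibroblasts, log2 1.91), in the same direction as Rbm24. Celf4 and Celf5 were lower (-1.23 and -1.06), as Celf2 was. Srrm4, which drives neuronal microexons, was higher (1.16). In control cultures 1 of the 4 was higher and 3 lower, and 4 of the 18 were higher and 11 lower. Of all genes, 43.5% and 43.4% were called in those directions. Raver2, a partner of PTB proteins, and the neural regulators Msi1 and Srrm3 were lower by -2.32, -2.13 and -1.77. The epithelial Esrp2 was higher by 2.16. The lists had median log2 changes of -0.53 and -0.32 there, against 0.00 over all genes tested.

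With MGT, 1 of the 4 family members was higher and 0 lower (0 also at an unadjusted p under 0.05 and by edgeR). Of the 18 others 6 were higher and 1 lower, where 17.9% and 17.7% of all genes were called in those directions. The medians of the lists were 0.11 and 0.09 against -0.01 over all genes. Rbm38 rose with Rbm24 (0.33), Rbpms2 and Raver2 rose by 0.37 and 0.31, and Esrp2 fell (-0.83). With shNT against MGT, higher values were called in 3 of the 4 and 8 of the 18, and lower values in 0 (0 also at an unadjusted p under 0.05 and by edgeR) and 5. Of all genes, 24.6% were called higher and 20.1% lower. The largest change in the lists was in Mbnl3, the third muscleblind gene (19.7 against 8.84 with MGT alone, log2 1.11). Rbm47 was lower (-0.81) and Srrm4 and Rbpms2 were higher (0.77 and 0.71). With shPtbp1 against shNT, 0 of the 4 were higher (0 also at an unadjusted p under 0.05 and by edgeR) and 1 was lower. Of the 18, 5 were higher and 6 lower, where 16.7% and 18.1% of all genes were called in those directions. The 18 include the hairpin's target Ptbp1 (-2.18) and Ptbp2 (2.15). Mbnl3 fell with Mbnl1 (12.05 against 19.7, log2 -0.69), and Msi1 rose (0.74). Against MGT alone Mbnl3 was higher (0.42), while Mbnl1 was lower than with either reference.

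Genes whose transcripts RBM20 is known to splice were looked at beside Rbm20, at the gene level only. In cardiomyocytes 11 of 13 were higher and 1 lower, where 35.2% and 41.7% of all genes tested were called in those directions. The median log2 change was 1.38 against -0.05 over all genes, with the ryanodine receptor Ryr2, triadin Trdn and Mlip at 3.23, 3.22 and 3.18. With MGT 9 of 13 were higher and 0 lower by limma (1 at an unadjusted p under 0.05, 0 by edgeR). Of all genes, 17.9% and 17.7% were called in those directions. The median of the list was 0.37 against -0.01, and titin Ttn (1.56), Trdn (0.94) and the Z-disc gene Ldb3 (0.80) led it. In control cultures against fresh fibroblasts, 9 were higher and 4 lower, against 43.5% and 43.4% of all genes (86.9% in either direction). The median was 0.17 against 0.00 over all genes, with Lrrfip1 at 2.52, Mlip at -2.20 and Ldb3 at 1.74. With shPtbp1 against shNT 4 were higher and 4 lower, against 16.7% and 18.1% of all genes. Pdlim3 was at -0.73, Lmo7 at 0.65 and Ldb3 at 0.57. With shNT against MGT there were 4 and 4 by limma (24.6% and 20.1% of all genes) but 2 higher and 5 lower by edgeR. Several of these genes are cardiomyocyte genes themselves, and Ryr2 is on both lists.

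**Figure D4:**
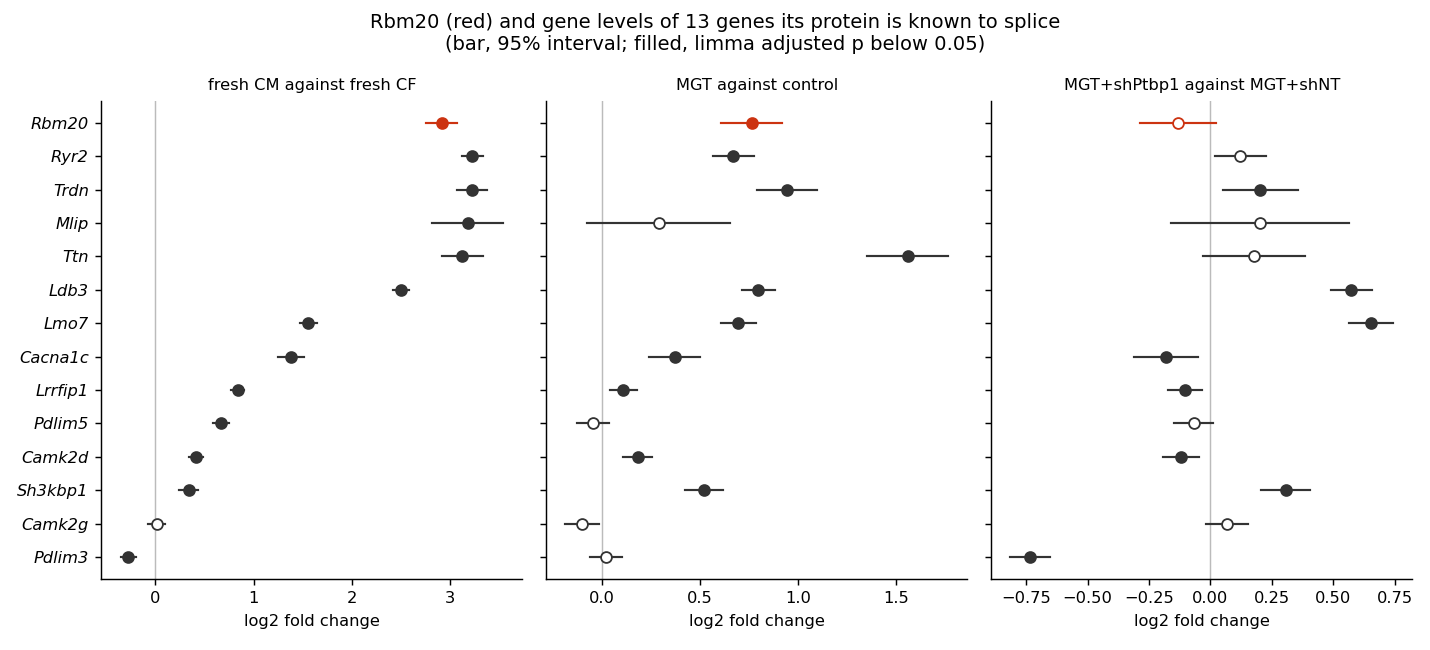
Log2 fold change (horizontal axis, scale differs by panel) of Rbm20 (red) and of 13 genes whose transcripts its protein is known to splice (rows), with 95% intervals and filled points where limma's adjusted p was below 0.05. In fresh cardiomyocytes 11 of 13 lie above 0 with a call, with MGT 9 of 13, and with shPtbp1 4 above and 4 below. Of all genes tested, 35.2%, 17.9% and 16.7% were called higher in these comparisons, and 18.1% lower in the last.

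The genes with the most similar course over the 12 libraries were found by the mean absolute difference of log2 values after centring each gene on its own mean. Nearest to Rbm24 were Alpk3 and Kcng2 (0.16 and 0.19, where the median gene lay at 1.49), and nearest to Rbm20 Fbxo40 and Bex1 (0.14 and 0.15, median 0.75). Nova2 was nearest to Olfml2a and Zfp366 (0.11 and 0.12, median 2.1) and Nova1 to Sema3c and Tcf4 (0.09 and 0.13, median 0.88). Rbfox1 was nearest to Bst1 and Dyrk2 (0.13 and 0.14, median 0.55), Celf2 to Homez and Slco3a1 (0.05 and 0.07, median 0.43) and Mbnl1 to Tmed8 and Traf3 (0.06 and 0.07, median 0.35). For Rbfox2, Mbnl2 and Celf1 the nearest genes were Nkap and Sidt2, Arhgap12 and Supt5, and Irf3 and Tanc1, all within 0.05. This likeness is a description over 12 libraries of 6 groups, and nothing on shared function or control follows from it.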

How the data were processed

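The authors deposited 1 table of CPM (reads per 1000000 assigned reads), 23423 genes by 12 libraries, whose columns were matched to samples by title. The submitters' processing notes name FastQC, TopHat2 2.1.0, HTSeq 0.6.1p1 and mm10, and no annotation or strand setting. With 1000000 as the sum of every column, 100% of the values were whole multiples of 1 read (tolerance 0.1 reads), so the reads could be recovered. The 27 rows with numeric names stayed in the fit and are not named.

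Each library was scaled by the median of its ratios to the geometric mean. A gene was tested if 2 or more libraries reached 1 CPM, which left 13977. The model was limma 3.58.1 (R 4.3.3) on log2(scaled CPM + 0.5), all 6 groups fitted jointly (6 residual degrees of freedom), with eBayes and a trend. Tests were two-sided, and Benjamini-Hochberg adjustment covered all genes of each of the 6 comparisons. No permutation test was run, since the smallest p for 2 libraries against 2 is 0.333. The scripts were tested on simulated data. The fits were repeated with unscaled CPM, TMM or upper-quartile factors, pseudocounts of 0.1 and 2, no filter, a 5 CPM filter, only the 4 libraries compared, the replicate number as a block, each library left out, and edgeR 4.0.16 (quasi-likelihood) on the recovered reads. Where a library is left out, the lone one of its group is assumed to vary like the others. Exon lengths and positions are from GENCODE for GRCm38, the mm10 build. Named throughout were the 10 regulators and, for each, its 2 nearest genes, and in each comparison the called genes with the largest change, up to 4 further regulators and 3 RBM20-spliced genes, provided the group with more had 1 scaled CPM. Tnnt2, Myl2, Ryr2, Tubb3, Dbh, Stmn2, Prph, Snap25, Cd68 and Cx3cr1 were named from the marker lists after their values were seen. The members and lists were chosen with earlier results of these data known. A further gene of the RBM20-spliced list is not reported here.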

Additional observations from a re-analysis of the deposited data

How the results depend on the processing

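Of 836 refits of the 60 log2 fold changes of the regulators, 759 kept their direction and their side of the threshold, 48 lost a call, 13 gained one and 16 changed sign. Without further scaling, which moved the median of all genes in control cultures against fresh fibroblasts from 0.00 to -0.10, Rbfox2 reversed from 0.0175 to -0.0937, Celf2 from 0.0619 to -0.0491, and 1 regulator in place of 3 was called higher there. With MGT, 1 regulator in place of 2 was called lower at a pseudocount of 2, where Nova2 lost its call. The count was also 1 with only the 4 libraries, where Nova2 fell below the filter and was not tested. With shNT over MGT, only the 4 libraries gave 2 higher and 1 lower, in place of 4 and 0. There too Nova2 was not tested, Rbfox1 lost its call and Celf2 gained one. The other changes of sign were in differences with no call either way. For shNT over MGT, Rbfox2 was at -0.00101 with upper-quartile scaling, -0.0106 with TMM factors, -0.0106 by edgeR and -0.0121 with only the 4 libraries (0.0145 as reported), and Rbm20 at -0.00481 with TMM factors, -0.00494 by edgeR and -0.00633 with only the 4 libraries (0.0198 as reported). Celf1 in cardiomyocytes was at 0.0132 with only the 4 libraries. Apart from the filter on Nova2, the causes were not tested.

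With 1 library left out, the regulators called lower with MGT numbered 1 to 2, and all genes called lower 1563 to 2250 (2475 with all libraries), the lowest without MGT replicate 2. For shNT over MGT, 1 to 3 regulators were called higher, with 1 without shNT replicate 1 and 2 without shNT replicate 2. For shPtbp1 against shNT, 0 to 3 were called higher, with 0 without shNT replicate 2 and 1 without shPtbp1 replicate 2, and all genes called lower numbered 1672 to 2326 (2531 with all libraries), the lowest without shNT replicate 1. For shPtbp1 against MGT, 1 to 3 were called higher and 1 to 3 lower, with 1 of each without shPtbp1 replicate 2. Leaving out 1 library also turned the sign of uncalled differences. In control cultures against fresh fibroblasts Rbfox2 ranged from -0.0205 to 0.062 and Celf2 from -0.0134 to 0.144. Rbm20 with shNT over MGT ranged from -0.00106 to 0.0416, and Nova2 with shPtbp1 against MGT from -0.0739 to 0.114.

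The replicate numbers are shared between groups, but the deviations of same-numbered libraries correlated at -0.027 to 0.162 in the 6 comparisons and at -0.136 to 0.162 over all pairs of groups. The labels do not say what a number marks, and the numbers were not taken as pairs. With the replicate block, 3 regulators in place of 4 were called higher with shNT and 2 in place of 3 with shPtbp1 against shNT, and the block changed no other count of regulators. Depth limits Nova2, Rbfox1, Rbm24 and Nova1 in culture, and 2 libraries per group limit every comparison.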
